A study of Mus musculus with 22 samples.

Results

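The 10 genes Il2ra, Il2rb, Il2rg, Il7r, Il4ra, Il6ra, Ifngr1, Ifngr2, Socs1 and Socs3, chains of cytokine receptors and SOCS inhibitors of their signalling, were described across all 22 libraries of a mouse thymocyte RNA-seq study. They were chosen by name from 43430 measured genes, and all 10 were found. RNA came from sorted CD45.1+ thymocytes carrying both CD4 and CD8, called double-positive, from mice with or without E2a (gene symbol Tcf3), an E protein transcription factor. All mice carried E2aF/F alleles, that is, both copies of E2a flanked for deletion by Cre recombinase. The 4-week groups were WT (V) and VcKO (VavCre E2aF/F), and WT (L) and LcKO (LckCre E2aF/F), with 3 libraries each. The 8-week groups were WT (V) and VcKO with 3 libraries each, and TPT with 4 libraries, VavCre E2aF/F mice given sublethal irradiation and WT bone marrow and analysed 4 weeks later. No Cre is named for either WT group, and these groups are called controls here. Vav drives Cre in blood cells from the stem cell stage on, and Lck drives it in developing T cells. Which cells of the TPT mice carried CD45.1 is not stated, and no label ties a library to an animal. The p-values therefore cover only the library-to-library spread, which may be technical.

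Cytokine receptors of this kind lack enzyme activity of their own and signal through JAK kinases, which phosphorylate STAT transcription factors. SOCS proteins are induced by STATs and shut the same receptors off, which makes them a feedback on the pathway. Early thymocytes depend on interleukin-7 and carry the interleukin-2 receptor alpha chain (CD25). At the double-positive stage Il7r and Il2ra are normally shut down and Socs1 is high, and Il7r returns as cells mature.

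Values are FPKM, fragments per kilobase of gene scaled to depth, so levels of different genes can be set side by side. Low values implied 5.49 to 37.5 M reads (M, mega) per library, the fewest in LcKO replicate 2. Tcf3, the deleted gene, lay below all controls of the same table in all knockout and TPT libraries, with log2 changes of -1.77 to -1.63 in VcKO, -1.93 in LcKO and -1.79 in TPT. TPT replicate 3 stood apart from the other libraries of its group (median r = 0.936 over all genes, against 0.962 to 0.963 for the other TPT libraries), so TPT results are also given without it. All 12 double-positive marker genes were detected in every group. Their summed FPKM was below all controls in the Vav knockouts and TPT, and less far below in LcKO. It was 5010 to 5402 in controls, 3684 to 4351 in VcKO at 4 weeks, 4634 to 4853 in LcKO, 2508 to 2808 in VcKO at 8 weeks and 1640 to 3759 in TPT. In bulk RNA, more cells of another type and more RNA per cell cannot be told apart.

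In the Vav controls at 4 weeks the 10 genes had a fixed order of level. Ifngr1, the ligand-binding chain for interferon-gamma, was highest at 167 ± 5.34 FPKM (SD, n = 3). Il4ra (57.2 ± 1.73 FPKM), Il2rg (54.3 ± 0.559 FPKM) and Socs1 (39.7 ± 2.31 FPKM) followed. Ifngr2 (6.55 ± 0.258 FPKM), Socs3 (3.62 ± 0.371 FPKM) and Il2ra (1.96 ± 0.154 FPKM) formed a middle range. Il7r (0.522 ± 0.0421 FPKM), Il2rb (0.247 ± 0.0379 FPKM) and Il6ra (0.121 ± 0.0419 FPKM) were lowest. No 2 neighbours in this order had overlapping libraries. In the Lck controls Socs1 had a higher mean than Il4ra and Il2rg and overlapped both, and Il2rb overlapped Il6ra. The 8-week controls kept the order of the Vav controls at 4 weeks, but Il2rg overlapped Socs1 and Il7r overlapped Il2rb.

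**Figure D1:**
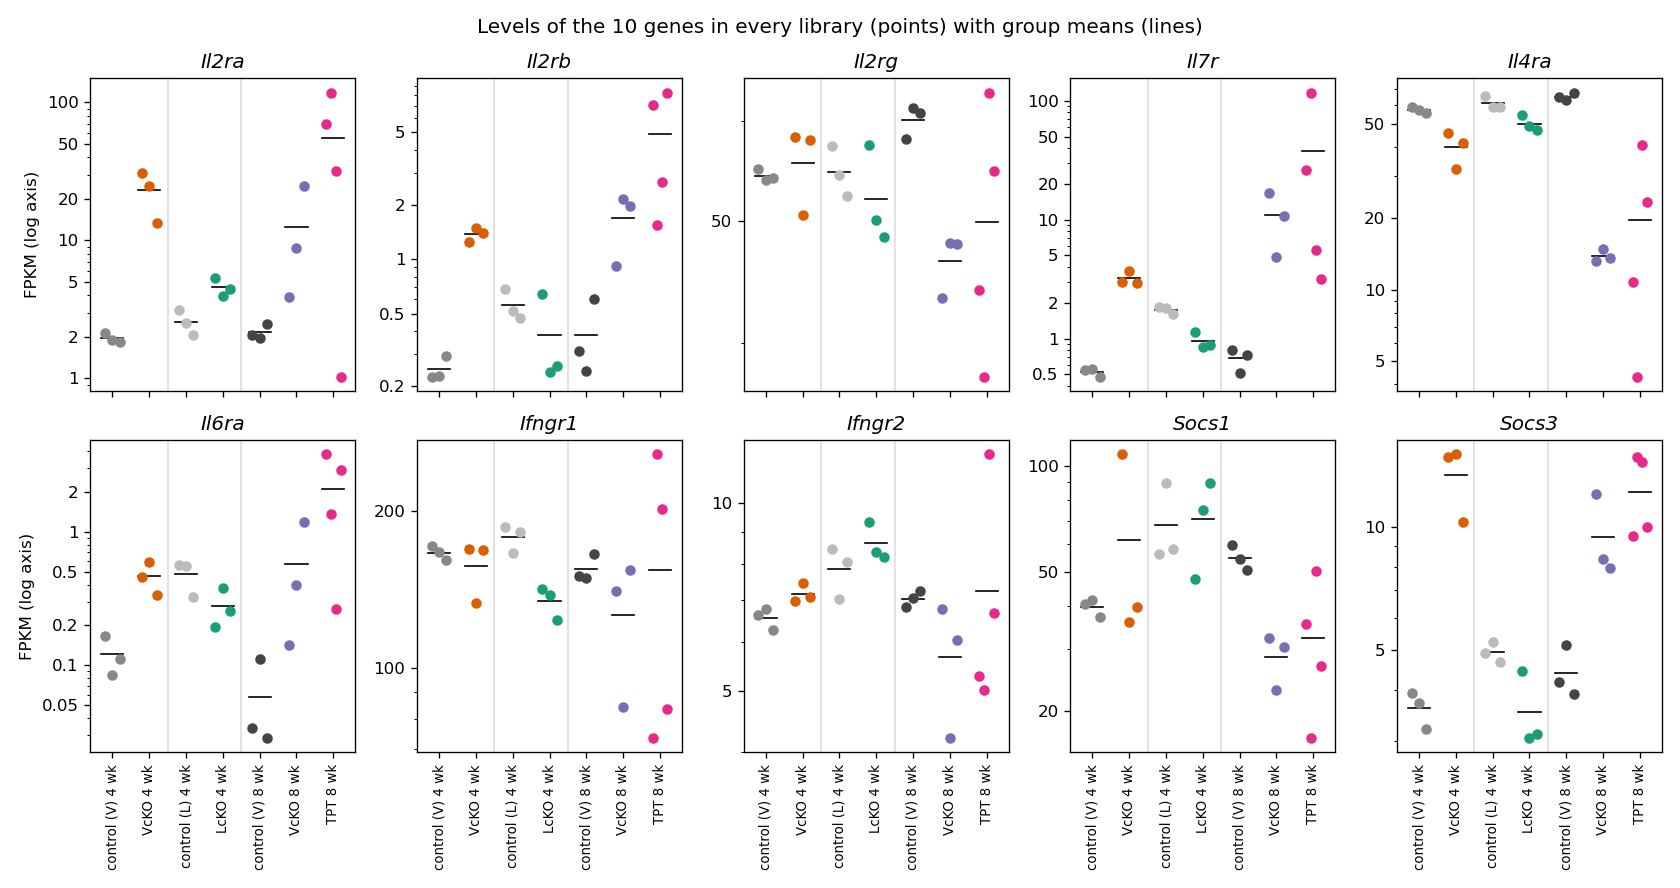
FPKM of each of the 10 genes (log axis, scaled separately per gene) in the 22 libraries, with points for libraries, lines for group means and pale vertical lines between the 3 tables. Il2ra, Il7r, Il2rb and Socs3 of the 3 VcKO libraries at 4 weeks all sit above their 3 controls, and Il4ra sits below them at both ages.

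Il2ra and Il4ra, which moved in opposite directions in the Vav knockouts at 4 weeks, have start regions that lie before both the RefSeq and the GENCODE gene start. They are shown because E proteins bind DNA at the E box, CANNTG. RefSeq windows of 250 bases before the gene start (build GRCm38.p6) were found for 9 of the 10 genes, and none for Il2rb. The Il2ra bases are chr2:11642542-11642791 and the Il4ra bases chr7:125552021-125552119, both on the plus strand, with an E box in capitals.
Il2ra: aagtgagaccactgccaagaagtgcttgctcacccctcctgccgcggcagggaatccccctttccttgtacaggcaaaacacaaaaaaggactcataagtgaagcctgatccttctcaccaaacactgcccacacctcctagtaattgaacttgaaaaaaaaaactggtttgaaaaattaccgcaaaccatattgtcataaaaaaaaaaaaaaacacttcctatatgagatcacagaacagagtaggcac
Il4ra: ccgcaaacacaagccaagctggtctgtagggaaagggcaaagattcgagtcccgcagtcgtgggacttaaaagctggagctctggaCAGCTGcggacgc
The Il4ra stretch holds a CAGCTG near its end, whose first base lies at -164 from the RefSeq start, and the Il2ra window holds no CANNTG. Of the 9 windows, 3 held a CANNTG: Il6ra with 4 matches, Il7r with 3 and Il4ra with 1. Among 32851 RefSeq windows of this length, 66.2% held one, and 13.0% held CAGCTG. The spacing TTCNNNGAA, which STAT dimers bind, was in the windows of Socs3 (TTCTTAGAA at -154) and Il7r (TTCAGGGAA at -142), and in 7.02% of all windows. Both motifs read the same on both strands, so 1 search covers both, and they do not overlap each other in these windows. For Socs3 and Il7r the RefSeq start lies inside the GENCODE gene, so their windows are not printed. A match is a string of letters, not a measured binding site.

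Of the 3 receptor chains for interleukin-2, Il2ra and Il2rb rose in VcKO at 4 weeks of age, and Il2rg was not called. Il2ra, the alpha chain, had the largest log2 change of the 10 genes in this comparison, with 2.13, 1.90 and 1.84 FPKM in the Vav controls and 30.9, 24.7 and 13.5 FPKM in VcKO. All VcKO libraries were above all controls, 11.8-fold in the mean, and the log2 change of FPKM + 1 was 2.95 (SE 0.272, adjusted p = 0.00251, limma). Il2rb, the beta chain shared with interleukin-15, had 0.224, 0.227 and 0.291 FPKM in the controls and 1.24, 1.48 and 1.39 FPKM in VcKO, again without overlap (log2 change 0.93, SE 0.0883, adjusted p = 0.00277). Il2rb reached the minimum of 1 FPKM only through the VcKO libraries, so it had to differ to be tested. Il2rg, the gamma chain common to the receptors of interleukins 2, 4, 7, 9, 15 and 21, had 53.9 to 55.0 FPKM in controls and 50.6 to 58.3 FPKM in VcKO, which overlapped (log2 change 0.03, SE 0.0689, adjusted p = 0.813). The 3 chains of 1 receptor therefore did not move alike: relative to Il2rg, Il2ra went from 0.0340 to 0.0388 in controls to 0.232 to 0.530 in VcKO.

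Il7r, the alpha chain of the interleukin-7 receptor, had 0.539, 0.553 and 0.474 FPKM in the Vav controls at 4 weeks and 3.0, 3.72 and 2.94 FPKM in VcKO. The groups did not overlap, and the ratio of means was 6.17 (log2 change 1.47, SE 0.0951, adjusted p = 0.00110). Like Il2rb, it passed the minimum only through VcKO. Il4ra, the alpha chain for interleukins 4 and 13, had 58.9, 57.2 and 55.4 FPKM in controls and 45.5, 32.4 and 41.4 FPKM in VcKO, all lower. Its log2 change was -0.53 (SE 0.122, adjusted p = 0.0356). That call was lost without any 1 of the 3 controls or VcKO replicate 3 (adjusted p up to 0.122), and without the filter on low genes (0.0864). Il6ra, the binding chain for interleukin-6, stayed under 1 FPKM (0.167, 0.0843 and 0.112 FPKM in controls, 0.460, 0.596 and 0.336 FPKM in VcKO) and was not tested. Its libraries did not overlap, and with no filter its log2 change was 0.38 (adjusted p = 0.0494), where 2.6% of 23006 genes were called higher.

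Socs3, an inhibitor induced mainly by STAT3-coupled receptors, had 3.93, 3.71 and 3.21 FPKM in the Vav controls and 14.8, 15.1 and 10.3 FPKM in VcKO. It was 3.70-fold higher in the mean (log2 change 1.62, SE 0.149, adjusted p = 0.00251), with no overlap. Socs1, which restrains interferon-gamma and gamma-chain receptors, had 40.3, 41.6 and 37.1 FPKM in controls and 109, 36.0 and 39.6 FPKM in VcKO. A single library, VcKO replicate 1, held the high value, and the change was not called (log2 0.43, SE 0.396, adjusted p = 0.523). Without that library the log2 change was -0.07. Ifngr1 had 161 to 172 FPKM in controls and 133 to 170 FPKM in VcKO (adjusted p = 0.608). Ifngr2, its signalling partner chain, had 6.27 to 6.77 FPKM in controls and 6.97 to 7.45 FPKM in VcKO. Its libraries did not overlap, but the change was small and not called (log2 0.11, SE 0.0558, adjusted p = 0.233).

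Counted over the 10 genes at 4 weeks, 4 were higher in VcKO and 1 lower, 4 were not called and 1 was not tested. Over all 10828 genes tested, 7.63% were called higher and 6.08% lower. Libraries did not overlap for 6 of the 10 higher and 1 lower, against 19.2% and 18.7% of all genes tested. The median log2 change of the 10 was 0.41, and that of all genes tested was -0.01. Since Il2rb and Il7r were tested only because VcKO was high, these counts describe the genes and do not test them.

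**Figure D2:**
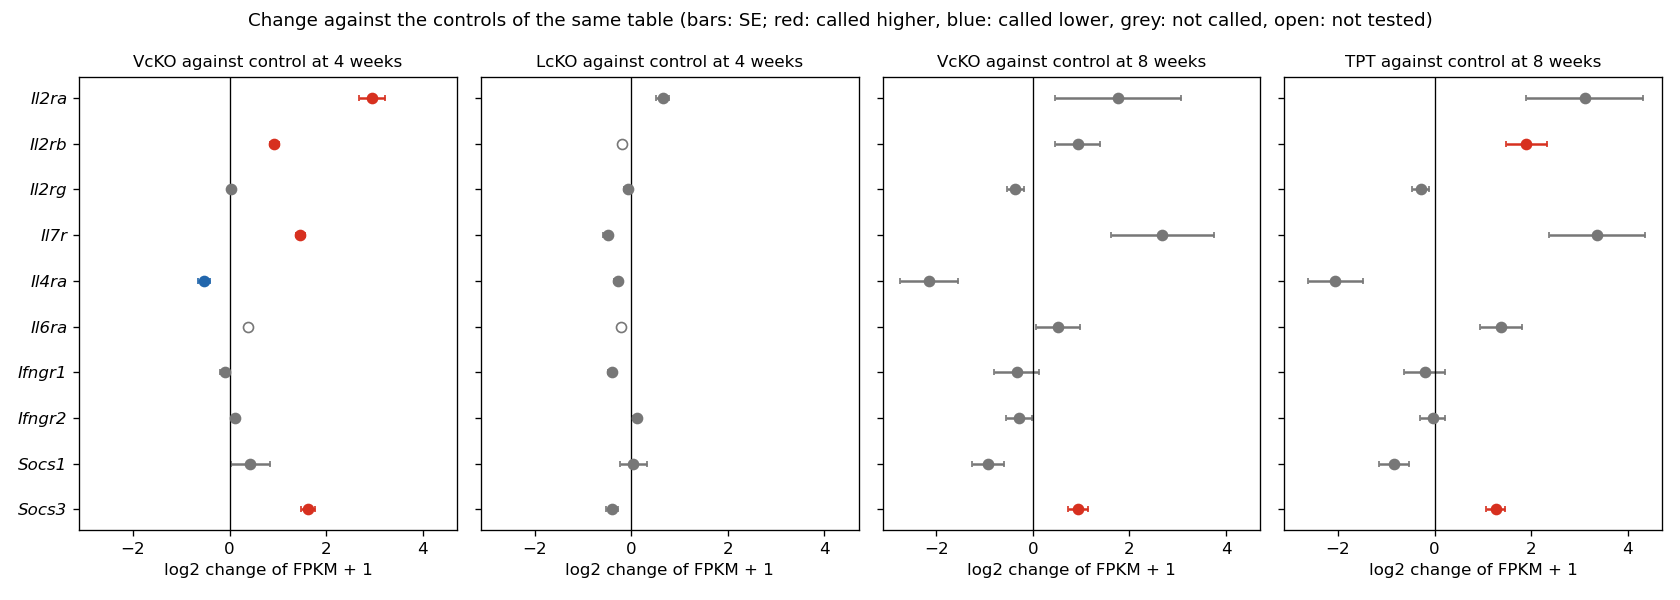
Log2 change of FPKM + 1 with its SE for each gene in the 4 knockout groups against the controls of the same table. Red marks an adjusted p under 0.05 and higher, blue lower, grey not called, and open circles have no test and no SE; VcKO at 8 weeks and TPT show wide SEs, and the LcKO points run from -0.49 for Il7r to 0.65 for Il2ra, none called.

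After deletion by LckCre none of the 10 genes passed the threshold at 4 weeks (0 of 8 tested; limma; 5 with an unadjusted p under 0.05). Over all 10946 genes tested, 0.201% were called higher and 0.804% lower. Il2ra had 3.12, 2.52 and 2.07 FPKM in the Lck controls and 5.38, 3.97 and 4.47 FPKM in LcKO. All 3 LcKO libraries lay above the controls, at 1.79-fold in the mean (log2 change 0.65, SE 0.138, adjusted p = 0.112). Il7r lay the other way, with 1.85, 1.79 and 1.59 FPKM in controls and 1.14, 0.852 and 0.882 FPKM in LcKO (log2 change -0.49, SE 0.0962, adjusted p = 0.0915). Its Lck controls were above its Vav controls, but these belong to separately scaled tables and were not tested against each other. Ifngr1 had 187, 166 and 182 FPKM in controls and 142, 138 and 124 FPKM in LcKO, without overlap (log2 change -0.40, SE 0.0716, adjusted p = 0.0789).

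Il4ra was also lower in every LcKO library (65.6, 58.8 and 58.8 FPKM in controls, 54.3, 48.8 and 47.0 FPKM in LcKO; log2 change -0.28, adjusted p = 0.166). Socs3 had 4.92, 5.23 and 4.67 FPKM in controls and 4.45, 3.05 and 3.12 FPKM in LcKO, again with all LcKO libraries below (log2 change -0.40, adjusted p = 0.236). Without LcKO replicate 1 the fall of Socs3 passed the threshold (log2 change -0.54, adjusted p = 0.0475). Il2rg (48.5 to 57.5 FPKM in LcKO), Ifngr2 (8.21 to 9.34 FPKM) and Socs1 (47.5 to 89.7 FPKM) overlapped their controls. Il2rb and Il6ra stayed under 1 FPKM in all 6 libraries, overlapped and were not tested. In all, 1 of the 10 was without overlap and higher and 4 lower, against 11.7% and 8.27% of all genes tested.

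The difference between the Vav and the Lck effect was tested directly at 4 weeks, as the VcKO change minus the LcKO change. It was called for 3 of the 8 genes tested, all toward a higher effect in VcKO, where 1.65% of 10541 genes were called in that direction and 1.65% in the other. The difference was 2.30 for Il2ra (SE 0.335, adjusted p = 0.00559), 1.96 for Il7r (SE 0.127, adjusted p = 5.16e-05) and 2.02 for Socs3 (SE 0.209, adjusted p = 0.000922). Il7r met the minimum only through VcKO among the Vav libraries and through the controls among the Lck libraries. It was therefore tested because of levels in the direction found, and its call describes it and does not test it. For Il7r and Socs3 the change was above 0 in VcKO and below 0 in LcKO, though the LcKO changes were not called. Il2rb (1.12, adjusted p = 0.00834) and Il6ra (0.59, adjusted p = 0.0463) were tested only with no filter, which called 1.01% of all genes in that direction. For Il4ra, Il2rg, Ifngr1, Ifngr2 and Socs1 no difference was called; Ifngr1 had the smallest adjusted p among them (difference 0.31, SE 0.133, adjusted p = 0.270) and was called without VcKO replicate 2 (0.42, adjusted p = 0.0361).

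At 8 weeks of age Il4ra and Il7r were far from their controls in VcKO, but the libraries of a group spread widely. Il4ra had 64.7, 63.0 and 67.6 FPKM in controls and 13.2, 14.8 and 13.6 FPKM in VcKO. The knockout libraries lay together, 4.69-fold below the controls in the mean, yet the fit of all 10 libraries of the table gave a log2 change of -2.15 with SE 0.605 and an adjusted p of 0.0568. That fit uses 1 estimate of spread per gene for all 3 groups, and the TPT libraries of Il4ra ranged from 4.30 to 40.6 FPKM. In a fit of the controls and VcKO alone the adjusted p for Il4ra was 1.95e-05, and without TPT replicate 2 or 3 the fit of the table also called it (0.0115 and 0.00930). Il7r had 0.799, 0.518 and 0.725 FPKM in controls and 16.9, 4.88 and 10.8 FPKM in VcKO, without overlap and 16.0-fold higher in the mean (log2 change 2.68, SE 1.06, adjusted p = 0.134; 0.00246 in the fit of the 2 groups alone and 0.0369 without TPT replicate 2).

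Il2ra had 2.08, 1.96 and 2.47 FPKM in the 8-week controls and 3.87, 8.82 and 25.0 FPKM in VcKO. All VcKO libraries lay above the controls but differed among themselves by more than the lowest differed from the controls (log2 change 1.77, SE 1.30, adjusted p = 0.387; 0.0433 in the fit of the 2 groups). The VcKO libraries were not in the same order for both genes: replicate 1 had the most Il7r and the least Il2ra, and the ratio of Il2ra to Il7r ran from 0.230 to 2.31, against 2.60 to 3.79 in the controls. Il2rb had 0.310, 0.241 and 0.60 FPKM in controls and 0.922, 2.14 and 1.97 FPKM in VcKO (log2 change 0.93, SE 0.461, adjusted p = 0.209). Il2rg had 58.1 to 61.5 FPKM in controls and 43.5 to 48.0 FPKM in VcKO, without overlap (log2 change -0.37, SE 0.179, adjusted p = 0.204; 0.00507 in the fit of the 2 groups). Il6ra had 0.0341, 0.110 and 0.0284 FPKM in controls and 0.140, 0.395 and 1.19 FPKM in VcKO (adjusted p = 0.472). At 8 weeks Il2rb, Il7r and Il6ra met the minimum only through the knockout groups.

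Socs3 was the only one of the 10 genes called in VcKO at 8 weeks by the fit of all 10 libraries. It had 4.17, 5.13 and 3.91 FPKM in controls and 12.03, 8.34 and 7.95 FPKM in VcKO (log2 change 0.93, SE 0.212, adjusted p = 0.0282). The call was lost when any 1 of the controls or VcKO libraries was left out (adjusted p up to 0.118), while the log2 change stayed between 0.76 and 1.04. Socs1 had 59.5, 54.2 and 50.5 FPKM in controls and 32.4, 22.9 and 30.4 FPKM in VcKO, without overlap and 1.92-fold lower in the mean (log2 change -0.93, SE 0.329, adjusted p = 0.103; 0.00284 in the fit of the 2 groups, and 0.0359 and 0.0243 without TPT replicate 2 or 3). The ratio of Socs1 to Socs3 was 10.6 to 14.2 in these controls and 2.69 to 3.82 in VcKO. Ifngr1 (149 to 166 FPKM in controls, 84.5 to 154 FPKM in VcKO) overlapped, and Ifngr2 (6.82 to 7.22 FPKM in controls, 4.21 to 6.78 FPKM in VcKO) did not, by a narrow margin (adjusted p = 0.512).

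Of the 10 genes at 8 weeks, 1 was called higher and 0 lower in VcKO, where 4.65% and 4.45% of 11632 genes were (4 of the 10 had an unadjusted p under 0.05). The fit of the 2 groups alone called 3 of 8 higher (Il2ra, Il7r and Socs3) and 3 lower (Il2rg, Il4ra and Socs1). That fit called 22.9% of 10958 genes higher and 22.8% lower. Il7r passed the minimum in it only through VcKO, so its call and the count of higher genes describe and do not test. Libraries did not overlap for 5 of the 10 higher and 4 lower, against 28.9% and 28.7% of all genes tested at this age.

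The VcKO effect at 8 weeks was compared with that at 4 weeks as a difference of changes over 12 libraries. Il4ra and Il2rg were called, both lower at 8 weeks, among 9.37% of 10489 genes called in that direction and 8.87% in the other. For Il4ra the difference was -1.63 (SE 0.145, adjusted p = 0.000320), and for Il2rg -0.40 (SE 0.0920, adjusted p = 0.0165). Both held their direction and call in all 23 alternative settings tried for each. Without VcKO replicate 1 at 8 weeks, Ifngr2 (-0.52, adjusted p = 0.0391) and Socs3 (-0.86, adjusted p = 0.0244) were called as well. The other tested genes were not called: Il7r had a difference of 1.21 (adjusted p = 0.0737), Socs1 -1.36 (0.0673), Socs3 -0.69 (0.0723), Ifngr2 -0.40 (0.126), Il2ra -1.18 (0.258) and Ifngr1 -0.24 (0.566). Without VcKO replicate 3 at 8 weeks the Il2ra difference was -1.82 (adjusted p = 0.0239). Leaving out a 4-week library also gave calls: Socs1 without VcKO replicate 1 (-0.86, adjusted p = 0.0177) or 2 (-1.64, 0.0278), and Socs3 without VcKO replicate 3 (-0.86, 0.0317).

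In the TPT mice Il2rb and Socs3 were called higher than in the 8-week controls. Il2rb had 7.08, 1.54, 2.67 and 8.28 FPKM, all above the controls (log2 change 1.90, SE 0.431, adjusted p = 0.0265). Its call was lost without TPT replicate 1 or any 1 control (adjusted p up to 0.122). Socs3 had 9.48, 14.8, 14.4 and 9.99 FPKM, also all above the controls and 2.76-fold higher in the mean (log2 change 1.27, SE 0.199, adjusted p = 0.00547). Socs3 kept its call in all 22 alternative settings. Over all genes, 4.59% were called higher and 4.6% lower in this comparison. Of the 10 genes 2 were higher and 0 lower, with 7 at an unadjusted p under 0.05. Il2rb, Il7r and Il6ra are among the 7 and were tested only because the knockout groups were high. These counts therefore describe the genes and do not test them.

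Il2ra and Il7r had their highest FPKM of any library in TPT but varied widely between its libraries. Il2ra had 69.6, 118, 31.7 and 1.02 FPKM, so replicates 1 to 3 were above all controls and replicate 4 was below them (log2 change 3.11, SE 1.22, adjusted p = 0.144). Without replicate 4 the log2 change was 4.36 (adjusted p = 0.00623). Il7r had 26.4, 117, 5.51 and 3.14 FPKM, all above the controls (log2 change 3.36, SE 0.995, adjusted p = 0.0672), and was called without replicate 4 (0.0335) or replicate 3 (0.0233). Replicate 2 was the highest for both genes and replicate 4 the lowest.

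Il4ra had 10.8, 4.30, 40.6 and 23.4 FPKM in TPT, all under the controls (log2 change -2.06, SE 0.566, adjusted p = 0.0535; -1.53 and 0.0440 without replicate 2). Replicate 2, the highest for Il2ra and Il7r, was the lowest for Il4ra. Il6ra had 3.84, 1.36, 0.264 and 2.92 FPKM, all above the controls (log2 change 1.38, SE 0.430, adjusted p = 0.0790). Socs1 had 35.5, 16.7, 50.3 and 26.9 FPKM, of which replicate 3 lay just under the lowest control (log2 change -0.84, adjusted p = 0.123). Without replicate 3, the library that stood apart, Il4ra (-2.52, adjusted p = 0.00443), Il6ra (1.75, 0.00453), Socs1 (-1.08, 0.0122) and Il2rg (-0.41, 0.0394) were called too. Il2rg (37.6 to 63.2 FPKM), Ifngr1 (73.5 to 257 FPKM) and Ifngr2 (5.02 to 11.99 FPKM) overlapped the controls with all 4 libraries in. Of the 10 genes, 4 were without overlap and higher and 2 lower, against 11.5% and 12.9% of all genes.

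TPT and VcKO at 8 weeks share their controls, so their changes against control are not independent. Set against each other, none of the 10 genes was called (0 of 10; limma; 1 at an unadjusted p under 0.05, Il2rb, log2 difference 0.97, SE 0.431, adjusted p = 0.841), and the libraries of all 10 overlapped. Over all genes 0% were called, and 3.46% were without overlap and higher in TPT and 2.53% lower. The SEs of up to 1.22 for Il2ra and 0.995 for Il7r leave large differences undetectable here.

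**Figure D3:**
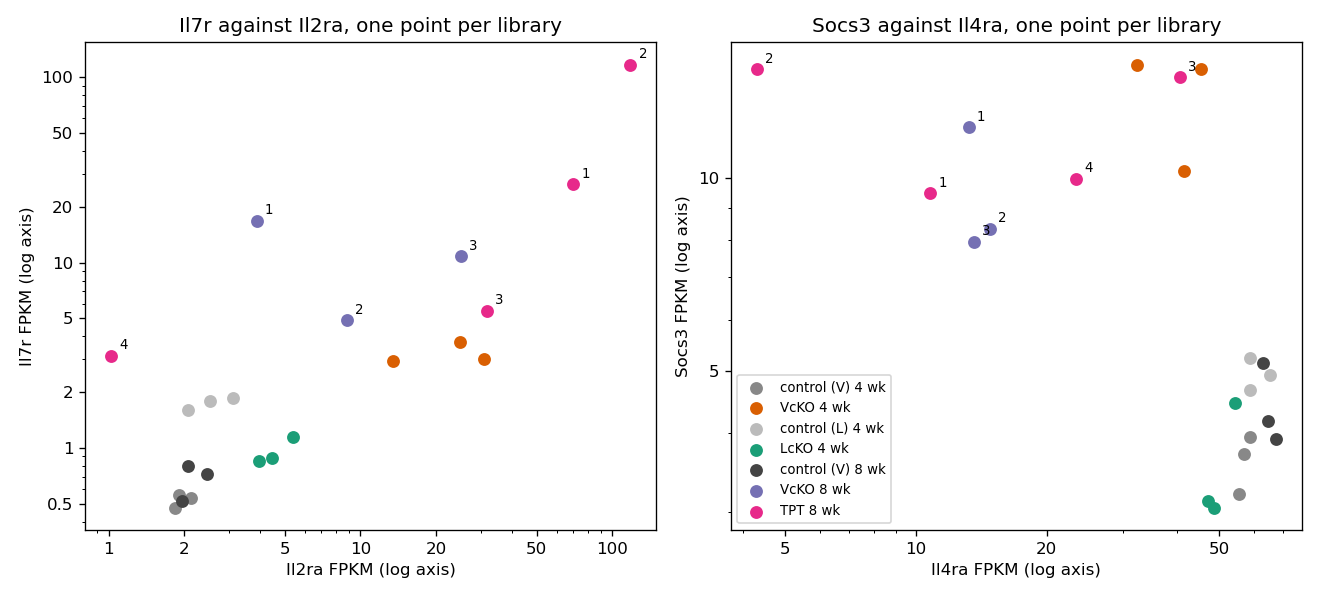
Il7r against Il2ra (left) and Socs3 against Il4ra (right), in FPKM on log axes, 1 point per library, with replicate numbers at VcKO of 8 weeks and TPT. On the left TPT replicate 2 lies at 118 and 117 FPKM and replicate 4 at 1.02 and 3.14 FPKM; on the right all Vav knockout and TPT libraries have more Socs3 and less Il4ra than any control.

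Both Il7r and Il2rb lie on chromosome 15, whose level as a whole differed. The median log2 deviation of its genes (mean of 5 FPKM or more) from the controls was 0.22 to 0.30 in VcKO at 4 weeks, 0.51 to 0.64 in VcKO at 8 weeks and 0.39 to 0.53 in TPT, against 0.00 to 0.04 in LcKO and at most 0.02 either way in controls. With each gene set relative to its chromosome, the log2 change at 4 weeks was 1.20 for Il7r (adjusted p = 0.00292) and 0.66 for Il2rb (adjusted p = 0.0122). Both calls held. The chromosome level came from genes of 5 FPKM or more, while both genes lay under 1 FPKM in the Vav controls. Adding 1 to FPKM shrinks a shift at such low levels, so centring may remove too much from these 2 genes. In TPT, Il2rb was then 1.43 (adjusted p = 0.0764) and no longer called. In VcKO at 8 weeks Il2rb was 0.36 (adjusted p = 0.641), down from 0.93, and Il7r 2.11 (adjusted p = 0.212). Il7r in TPT was 2.89 (adjusted p = 0.0986). The difference of the Vav and Lck effects for Il7r was 1.71 (adjusted p = 0.000390). Single libraries also departed on other chromosomes of the 10 genes. Chromosome 10, with Ifngr1, was at 0.30 in VcKO replicate 3 at 8 weeks and -0.10 in replicates 1 and 2. Chromosome 2, with Il2ra, was at 0.12 in VcKO replicate 3 at 4 weeks, and X, with Il2rg, at -0.26 in TPT replicate 3.

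**Figure D4:**
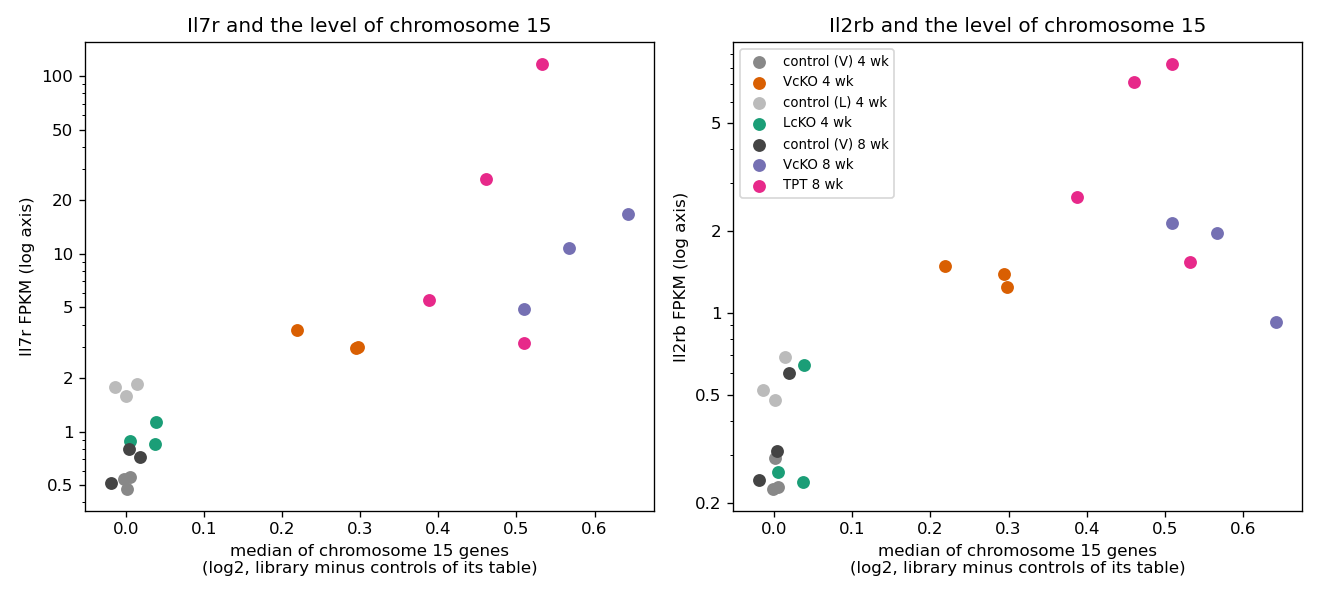
FPKM of Il7r (left) and Il2rb (right, log axes) against the median log2 deviation of chromosome 15 genes from the controls of the same table, 1 point per library. The 10 VcKO and TPT libraries lie at 0.22 to 0.64 on the horizontal axis and the 12 control and LcKO libraries between -0.02 and 0.04.

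Summed markers of other cell types also differed between the groups, and their part in the changes was not tested. The summed FPKM of 7 measured gamma-delta T cell markers was 2.61 to 8.10 in controls, 28.1 to 83.8 in VcKO at 4 weeks, 14.4 to 180 in VcKO at 8 weeks and 36.4 to 890 in TPT, led by Tcrg-C2. The 13 innate-like T and NK cell markers, cells that carry Il2rb, summed to 25.0 to 43.1 in controls, 52.3 to 195 in VcKO at 4 weeks, 328 to 487 at 8 weeks and 91.3 to 790 in TPT. Gzma led this sum in every group. Of the 13, 3 were tested in VcKO at each age and 1 was called higher. Nkg7 of this list passed the minimum at 4 weeks only through VcKO. Over all genes 7.63% were called higher in VcKO at 4 weeks and 4.65% at 8 weeks. Klra7, an NK receptor, was at 0 in every group, controls included. The 13 early double-negative markers, the stage that carries Il2ra and Il7r, went from 1.15 to 2.76 in the Vav controls to 12.3 to 24.8 in VcKO at 4 weeks, 14.2 to 24.5 at 8 weeks and 17.9 to 76.4 in TPT. Their leading gene was Dtx1, a Notch target, with 10.7 to 23.0 FPKM in VcKO at 4 weeks. Kit, another of the 13, was lower in VcKO at 4 weeks (0.0202 to 0.0464 FPKM, against 0.143 to 0.238 in controls). At 8 weeks Kit was higher in VcKO (0.117 to 1.29 FPKM, against 0.0718 to 0.0872 in controls). Hhex, Bcl11a, Gata2 and Cpa3 were at 0 in all 3 VcKO libraries at 4 weeks, of which Hhex and Gata2 were also at 0 in all 3 controls. The 8 regulatory T cell markers, cells with high Il2ra, summed to 8.90 to 10.4 in Vav controls, 14.3 to 19.2 in VcKO at 4 weeks, 24.9 to 26.6 at 8 weeks and 13.4 to 45.1 in TPT, led by Ikzf2. Foxp3, their defining gene, had 0.0494 to 0.0774 FPKM in the Vav controls at 4 weeks and 0.0227 to 0.0650 FPKM in VcKO, and at most 0.245 FPKM in any library. Within TPT, replicate 2, with the most Il2ra and Il7r, had the lowest early double-negative (17.9) and regulatory T cell (13.4) sums. Its gamma-delta sum was high (853). Its innate-like sum was the highest of TPT (790), while its Il2rb was the lowest of TPT. In LcKO these 4 lists stayed near their Lck controls: 4.15 to 9.55, 28.2 to 42.0, 2.0 to 3.34 and 11.6 to 13.0. The 10 mature single-positive T cell markers summed to 72.1 to 79.9 in Vav controls and 109 to 128 in VcKO at 4 weeks. Of 8 tested, 6 were called higher, against 7.63% of all genes. S1pr1 and Klf2 of this list lay under 1 FPKM in these controls and passed the minimum only through VcKO. The count therefore describes these markers and does not test them. At 8 weeks their sums overlapped: 105 to 114 in controls, 74.9 to 132 in VcKO and 37.4 to 270 in TPT. Lck controls (87.4 to 102) and LcKO (86.3 to 107) overlapped too. Yet 2 of 7 tested were called higher in LcKO and 0 lower, against 0.201% and 0.804% of all genes. At 8 weeks 9 were tested, with 1 higher and 1 lower in VcKO and 2 higher and 0 lower in TPT. Over all genes 4.65% rose and 4.45% fell in VcKO at that age, and 4.59% and 4.6% in TPT. Klf2 met the minimum at 8 weeks only with the knockout groups, so these 8-week counts describe the genes and do not test them.

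Of 35 other cytokine receptor genes, 15 were tested in VcKO at 4 weeks, of which 2 rose and 2 fell, where 7.63% of all genes tested rose and 6.08% fell. Il12rb2 went from 2.28 ± 0.273 to 7.64 ± 1.84 FPKM (log2 change 1.38, adjusted p = 0.00493) and Il12rb1 from 15.3 ± 1.14 to 24.8 ± 1.63 FPKM (0.66, adjusted p = 0.00425); together they form the interleukin-12 receptor. Il21r, which pairs with Il2rg, fell from 98.6 ± 1.57 to 66.6 ± 1.08 FPKM (-0.56, adjusted p = 0.00219), and Csf2ra, for GM-CSF, from 1.21 ± 0.0645 to 0.675 ± 0.0706 FPKM (-0.40, adjusted p = 0.0256). Csf2ra passed the minimum only through the controls, where it was high. At 8 weeks 18 were tested, and in VcKO Il12rb2 (2.40) and Il9r (2.61) rose and Il21r (-1.39) fell. The same 3 were called in TPT, at 2.40, 2.43 and -1.27. Over all genes 4.65% rose and 4.45% fell in VcKO at this age, and 4.59% and 4.6% in TPT. Il9r, which also pairs with Il2rg, had 0.0654 ± 0.0207 FPKM in the controls and passed the minimum only through the knockout groups. The Vav effect exceeded the Lck effect for Il12rb2 (1.20, adjusted p = 0.0113) and Il12rb1 (0.67, adjusted p = 0.00748). In the VcKO effect at 8 against 4 weeks Il21r (-0.83), Il17ra (-0.51) and Tgfbr2 (-0.45) were called lower. In LcKO 0 of 15 were called, against 0.201% of all genes higher and 0.804% lower.

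Among the kinases and transcription factors downstream, 3 of 10 tested JAK and STAT genes rose in VcKO at 4 weeks and 0 fell, against 7.63% and 6.08% of all genes. Jak3, the kinase bound to Il2rg, went from 2.15 ± 0.0581 to 3.30 ± 0.136 FPKM (log2 change 0.45, adjusted p = 0.00727). Stat5a, used by interleukins 2 and 7, rose by 0.26 (adjusted p = 0.0202). In TPT Jak3 rose by 1.41 (adjusted p = 0.0213) and Stat5b fell by 0.58 (adjusted p = 0.0337), out of 11 tested. The effect at 8 weeks exceeded that at 4 weeks for Jak3 (0.68, adjusted p = 0.00952), while Stat2 (-0.44) and Jak1 (-0.36) were lower in it. In LcKO and in VcKO at 8 weeks 0 of 11 passed, where 0.201% and 4.65% of all genes rose and 0.804% and 4.45% fell.

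Of the other SOCS genes and JAK-STAT inhibitors, none of 11 was called in VcKO at 4 weeks, none of 12 in LcKO or TPT, and 1 of 12 in VcKO at 8 weeks, Ptpn2, a phosphatase of JAKs (log2 change 0.59, adjusted p = 0.0443). Over all genes 7.63% rose and 6.08% fell in VcKO at 4 weeks, 4.65% and 4.45% in VcKO at 8 weeks, 4.59% and 4.6% in TPT and 0.201% and 0.804% in LcKO, so these few genes lay near the background. Pias1 was called lower in the effect at 8 against 4 weeks (-0.27, adjusted p = 0.0334). Of 12 STAT5 target genes, 1 of 9 tested rose in VcKO at 4 weeks (Gimap5, 0.38, adjusted p = 0.0335). At 8 weeks 1 of 10 was called and it fell: Bcl2, a survival factor downstream of interleukin-7, had 2.06 ± 0.411 FPKM in controls and 0.477 ± 0.193 FPKM in VcKO (-1.05, adjusted p = 0.0305). These single calls also lie near the background. In all, 4 of 9 tested STAT5 targets were lower in the VcKO effect at 8 than at 4 weeks, against 9.37% of all genes: Ccnd2 (-1.28), Bcl2 (-0.81), Mcl1 (-0.74) and Pim2 (-0.57). Ccnd2 and Bcl2 lay under 1 FPKM in all 3 VcKO libraries at 8 weeks and above it in all controls. In this fit they passed the minimum at 8 weeks only through the controls, where they were high, so the count describes these genes and does not test them. In LcKO and TPT 0 of 9 and 0 of 10 STAT5 targets were called.

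Of 12 tested target genes of interferon-gamma, 7 rose in VcKO at 4 weeks and 0 fell, against 7.63% and 6.08% of all genes, while Ifngr1 and Ifngr2 themselves were not called. The median log2 change of the 12 was 0.45. B2m, the light chain of MHC class I, went from 162 ± 13.7 to 352 ± 14.4 FPKM (1.12, adjusted p = 0.00146). Irf1, a transcription factor (0.67), Nlrc5, the MHC class I activator (0.76), and Igtp, a GTPase (0.49), rose as well, and Nlrc5 passed the minimum only through VcKO. At 8 weeks Irf1 (0.95) and Gbp3 (0.65) rose in VcKO and Irf1 (0.82) in TPT, out of 14 tested, where 4.65% and 4.59% of all genes rose. Gbp3 passed the minimum only through the knockout groups. B2m rose more in VcKO than in LcKO (0.94, adjusted p = 0.00204), and in LcKO 0 of 12 were called. Igtp (-0.67) and Gbp4 (-0.53) were lower in the effect at 8 than at 4 weeks. The cytokines themselves were near absent: none of 10 ligand genes (among them Il2, Il4, Il7 and Ifng) reached the minimum in any table, and the highest value in any library was 0.805 FPKM, of Tslp.

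Of 18 genes listed as regulators of Il7r and Il2ra, 16 were tested in VcKO at 4 weeks, where 6 rose and 1 fell, against 7.63% and 6.08% of all genes. Notch1, whose signalling keeps Il2ra on in early thymocytes, went from 15.9 ± 0.563 to 45.4 ± 12.4 FPKM (log2 change 1.43, adjusted p = 0.00507), and Notch3 from 10.3 ± 0.616 to 27.0 ± 10.2 FPKM (1.23, adjusted p = 0.0281). Klf2 (1.52) and Runx3 (1.24), factors of mature T cells, were the other largest rises, and Klf2 passed the minimum only through VcKO, as did Runx3. Id3, an inhibitor of E proteins, fell by 0.63 in VcKO (adjusted p = 0.0121) and by 0.63 in LcKO (adjusted p = 0.0198), the only call among 15 tested in LcKO, where 0.804% of all genes fell. At 8 weeks Notch1 (2.31 in VcKO, 2.37 in TPT) and Notch3 (1.64 and 2.21) rose, 2 of 16 tested in each, against 4.65% and 4.59% of all genes. The Vav effect on Notch1 exceeded the Lck effect by 1.32 (adjusted p = 0.00697).

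The genes whose pattern over the 22 libraries was most like that of Il7r, by Pearson correlation of log2 deviations from the controls of the same table, were Slc35f2 (r = 0.957), Elovl5 (0.947), Il12rb2 (0.946), Tnfsf10 (0.946) and Lmo4 (0.936). Those most like Il2ra were Stambpl1 (0.868), AW011738 (0.846), Syde1 (0.841), Rab11fip1 (0.827) and Flad1 (0.825). They come from 8767 genes above the minimum in all 3 tables, leaving out the gene's own chromosome, where each had 1 gene among its first 5. The libraries share their controls within a table, and the correlations mostly contrast Vav knockouts with the rest. Slc35f2 had 2.38 ± 0.199 and 6.36 ± 0.259 FPKM in Vav controls and VcKO at 4 weeks, and 19.3 ± 16.4 FPKM in TPT (n = 4), where its libraries ran from 7.13 to 43.2 FPKM.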

How the data were processed

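Double-positive thymocyte RNA was profiled by RNA-seq in 22 libraries, and the authors deposited FPKM values per gene in 3 tables. The tools HTSeq 0.6.1, STAR, DESeq2 and Trimmomatic 0.33 and the build mm10 are named per the submitters' processing notes, in roles and an order not given in the sources used here. The gene lengths behind the FPKM and whether counting used strand are likewise not given in the sources used here. Of 43430 Ensembl identifiers, 42462 were matched to a symbol. Coordinates were taken from the GENCODE annotation of the same build, and promoter windows from RefSeq. Between 50.7% and 59.5% of low values were whole multiples of 1 read (tolerance 0.03), too few to recover counts, so no count test was run. No library pair was identical (0 pairs).

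The trend method of limma 3.58.1 (R 4.3.3) was applied to log2 of FPKM plus a pseudocount of 1, on genes with at least 1 FPKM in 3 libraries of each table in a fit. Benjamini-Hochberg adjustment ran over all genes tested in a comparison, and an adjusted p under 0.05 was called. This scale understates changes of low genes. Fits used the 6 libraries of a 4-week table, the 10 of the 8-week table, or 12 for a difference of effects, in which an offset between tables cancels. The fit was tested on simulated data.

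All 10 genes and Tcf3 are named, with up to 4 called members per direction of each pathway list and the 5 genes most like Il2ra and Il7r on other chromosomes. The genes, lists and rules were chosen with earlier results of these data known. The alternatives were another pseudocount, other filters, scalings and variance models, a replicate block, chromosome centring, fewer groups in a fit and leaving out each library. Some members of the pathway lists are counted but not reported by name here.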

Additional observations from a re-analysis of the deposited data

Results flagged for a closer look

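Effects of the E2a deletion that differed between 2 settings, by a test of the difference itself (limma, adjusted p under 0.05), were found for 5 of the 10 genes. Between VavCre and LckCre at 4 weeks, the log2 change was higher in VcKO by 2.30 for Il2ra, 1.96 for Il7r and 2.02 for Socs3. Il7r met the minimum only through VcKO among the Vav libraries and through the controls among the Lck libraries. Between 8 and 4 weeks, the VcKO change was lower at 8 weeks, with a difference of -0.397 for Il2rg and -1.63 for Il4ra. In every one of these 5 tests both effects came from separately scaled tables, each against its own controls. No library of the TPT group stood far enough from the other 3 to be marked for any of the 10 genes on Dixon's test at 95%.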

How the results depend on the processing

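No called change of the 10 genes changed direction under any alternative tried. The counts of genes called did move. In VcKO at 4 weeks, 4 higher became 2 with a mean of 5 FPKM required, and 1 lower became 0 with no filter or with the replicate block. Leaving out 1 library gave 2 to 4 higher and 0 to 1 lower, since without any VcKO library Il2rb and Il7r had too few libraries above 1 FPKM to be tested. Over all genes it gave 303 to 765 higher and 187 to 795 lower. In LcKO the lower count ranged from 0 to 1 in this way, and over all genes from 2 to 72. In VcKO at 8 weeks, 1 higher and 0 lower became 3 and 3 with array weights or with only the 2 groups compared. Over all genes, array weights called 2879 of 11632 higher and 2886 lower, and the 2 groups alone 2511 and 2494 of 10958. The higher count was 0 with no filter, the common-sum scaling or the replicate block. Leaving out 1 library gave 0 to 2 higher and 0 to 2 lower, and over all genes 76 to 1903 higher and 66 to 1632 lower. In TPT against control, 2 higher became 4 with a pseudocount of 0.1 or array weights, and 1 with no filter, a mean of 5 FPKM, chromosome centring or only the 2 groups compared. Array weights gave 2 lower instead of 0, and leaving out 1 library gave 1 to 4 higher and 0 to 3 lower. Over all genes, array weights called 1648 of 11632 higher and 1435 lower in TPT. Leaving out 1 library gave 112 to 2104 higher and 87 to 1710 lower over all genes. For the difference of the Vav and Lck effects, 3 higher became 5 with no filter and 0 with a mean of 5 FPKM, where 5 of the genes were tested, and 2 to 3 without 1 library. For 8 against 4 weeks, 0 higher became 1 with array weights, and 2 lower ranged from 2 to 4 without 1 library. Over all genes, array weights called 1313 of 10489 higher there, and 504 to 1158 were lower without 1 library. Apart from the tests already named in the report, the cause was not tested. The common-sum scaling shifted the median of all genes by -0.119 in VcKO at 8 weeks.

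Same-numbered libraries of compared groups had correlations of their deviations between -0.109 and 0.181. Between controls and VcKO at 8 weeks, every control correlated best with its own number, though weakly (r = 0.047, 0.0672 and 0.0587). With so few libraries per group, this cannot decide whether the numbers pair them. With the replicate block Il4ra in VcKO at 4 weeks (adjusted p = 0.0541), Socs3 in VcKO at 8 weeks (0.0780) and Il2rb in TPT (0.0956) were no longer called. In TPT Il2ra was called (0.0249) in that fit, in which replicate 4 had no partner and did not enter the change of 4.36. Depth limits Il2rb, Il6ra and Il7r most, which lay under 1 FPKM in the Vav controls.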
